A study of Mus musculus with 7 samples.

Results

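The genes that build cholesterol and fatty acids, and the regulators that switch them on, were examined with and without Srgap2 in microglia, the brain's own macrophages. The 30 genes are known targets of the sterol regulatory element-binding proteins (SREBPs) or parts of their control, and each was taken by its gene symbol. The deposited table of 23420 genes held 29 of them under the current symbol and Msmo1 under its older symbol Sc4mol. All 30 had enough counts to be tested, among 11991 genes.

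Microglia had been sorted as CD11b+, CD45low, CX3CR1+ cells from mouse cortex at postnatal day 30, and their polyadenylated RNA was sequenced. The 4 cKO libraries came from Tmem119creErt2+ Srgap2f/f mice, in which a tamoxifen-inducible recombinase driven from the microglial Tmem119 gene removes the floxed Srgap2 alleles. The 3 WT libraries came from Srgap2f/f mice, which carry the floxed alleles but no recombinase. Both groups had been given 2 doses of tamoxifen, 75 ug per g, on postnatal days 8 and 10. The recombinase was present in the cKO group alone, so its own effect and that of the deletion cannot be told apart. Each library is 1 mouse, and sex, litter and batch are not in the labels. Values of single libraries are listed below in the order of their replicate numbers.

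Total counts were from 27025270 to 35213711 in cKO libraries and from 27016173 to 35707304 in WT libraries. Srgap2 itself averaged 272 ± 55.0 CPM (counts scaled to library size) in cKO (SD, n = 4) and 788 ± 165 CPM in WT (SD, n = 3), a log2 fold change of −1.53 (SE 0.17, adjusted p = 0.0053). The 7 microglial markers P2ry12, Cx3cr1, Tmem119, Csf1r, Sall1, Itgam and Fcrls summed to between 35555.2 and 40514.6 CPM in cKO and between 40149.5 and 43743.3 CPM in WT, and Tmem119, which carries the recombinase, was the 1 marker of any list to pass the threshold. Cx3cr1 and Itgam encode proteins used in the sort. Markers of other cells were low: 8 oligodendrocyte-lineage markers summed to 225 to 332 CPM in cKO and 226 to 257 CPM in WT, 6 astrocyte markers to 86.8 to 140 CPM and 132 to 138 CPM, 6 neuronal markers to 1.46 to 3.49 CPM and 1.46 to 1.75 CPM, and 6 markers of border-associated macrophages to 65.2 to 129 CPM and 70.7 to 108 CPM. Of the 5 monocyte and neutrophil markers in the table the sum was 8.15 to 10.1 CPM in cKO and 5.77 to 10.5 CPM in WT, and of 6 endothelial and mural markers 52.9 to 72.4 CPM and 67.4 to 75.8 CPM, with Cldn5, Ly6c1 and Rgs5 at 0 in every library. Slc1a3 alone was at 74.7 to 130 CPM in cKO and 122 to 127 CPM in WT, most of the astrocyte sum. Pecam1 alone was at 51.8 to 68.5 CPM in cKO and 65.5 to 73.7 CPM in WT, most of the endothelial and mural sum. These sums therefore mainly follow a single gene each. Other features varied among libraries of 1 genotype. Xist, expressed from the inactive X chromosome, reached 69.4 and 144 CPM in replicates 2 and 4 of cKO and 243 and 127 CPM in replicates 2 and 3 of WT, while every other library had 0.66 CPM or less. Across genes, the rank correlation of a library's deviation from the mean level with transcript GC content was lowest in cKO replicate 1 at −0.50 and highest in cKO replicate 4 at 0.42, and it lay between −0.0028 and 0.23 in WT libraries.

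Cells make cholesterol from acetyl-CoA by the mevalonate pathway: an isoprenoid arm leads to farnesyl diphosphate, and a second arm leads from squalene through lanosterol to cholesterol. SREBP2, the product of Srebf2, mainly turns on these genes, and SREBP1, the product of Srebf1, mainly turns on fatty acid synthesis. Both are made as precursors in the membrane of the endoplasmic reticulum, where the escort protein SCAP carries them to the Golgi for cleavage when sterols are low and INSIG proteins hold them back when sterols are high. In the brain, microglia both make cholesterol and take it up from myelin and debris, and liver X receptors (LXRs), which respond to oxidised sterols and to the intermediate desmosterol, drive its export and also the transcription of Srebf1.

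Promoter sequence was compared first, because SREBPs bind DNA weakly alone and act beside the factors NF-Y and Sp1. Promoters of 24 of the 30 genes were found in RefSeq (GRCm38.p6, from 250 bases before to 50 bases after the start of transcription), and a gene was counted if any of its listed promoters held the motif on either strand. The sterol regulatory element, searched as TCACNCCAC, lay in 1 of the 24, Hmgcs1, and in 1.44% of 27025 genes with a promoter. The CCAAT box bound by NF-Y, searched as CCAAT, lay in 20 of the 24, or 83.3%, and in 41.1% of all genes with a promoter. The GC box bound by Sp1, searched as GGGCGG, also lay in 20 of the 24, and in 38.2% of all. None of the 3 motifs holds another. A match describes these letters in this window and does not show binding. Sequences that differ from the letters searched were not counted, so a missing match does not show that an element is absent. The 3 promoters below are shown because Hmgcs1 held the sterol element and because Srebf2 and Acly had higher levels in each cKO library than in any WT library (next paragraphs). They run 5′ to 3′ with matches to the 3 motifs on either strand in capitals, at chr13:119690101-119690400 (plus strand) for Hmgcs1, chr15:82147019-82147318 (plus strand) for Srebf2 and chr11:100527951-100528250 (minus strand) for Acly.
Hmgcs1: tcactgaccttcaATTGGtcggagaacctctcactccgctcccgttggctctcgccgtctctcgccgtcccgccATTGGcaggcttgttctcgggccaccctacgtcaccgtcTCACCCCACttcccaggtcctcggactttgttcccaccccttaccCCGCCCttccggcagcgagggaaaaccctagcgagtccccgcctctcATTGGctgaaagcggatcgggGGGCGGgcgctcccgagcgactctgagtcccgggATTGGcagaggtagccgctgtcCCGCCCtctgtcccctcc
Srebf2: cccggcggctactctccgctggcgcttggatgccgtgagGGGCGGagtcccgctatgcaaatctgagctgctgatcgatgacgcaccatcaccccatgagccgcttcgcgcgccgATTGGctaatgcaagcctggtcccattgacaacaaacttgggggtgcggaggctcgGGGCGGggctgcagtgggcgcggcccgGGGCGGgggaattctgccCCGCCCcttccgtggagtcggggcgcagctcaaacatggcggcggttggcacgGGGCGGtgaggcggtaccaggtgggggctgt
Acly: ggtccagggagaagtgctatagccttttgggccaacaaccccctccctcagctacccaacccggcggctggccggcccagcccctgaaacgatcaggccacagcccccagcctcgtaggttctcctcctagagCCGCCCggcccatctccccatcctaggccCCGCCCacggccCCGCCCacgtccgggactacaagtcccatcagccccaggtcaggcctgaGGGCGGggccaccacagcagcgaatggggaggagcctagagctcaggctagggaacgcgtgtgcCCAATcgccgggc
The Hmgcs1 window held 1 sterol element with 4 CCAAT boxes and 3 GC boxes. The Srebf2 window held 1 CCAAT box and 5 GC boxes, and the Acly window 1 CCAAT box and 4 GC boxes.

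None of the 30 genes passed the threshold between cKO and WT. In bulk RNA, fewer cells of a type and less RNA per cell cannot be told apart. With edgeR's quasi-likelihood test, 0 rose and 0 fell at an adjusted p of 0.05, where 0.359% of all genes tested did (0.317% rose and 0.0417% fell). At an unadjusted p under 0.05, 4 were higher in cKO and 1 was lower, 16.7% of the 30, against 16.5% of all genes tested (9.65% higher and 6.87% lower). The DESeq2 test called 3 of the 30 and 4.49% of all genes tested, and limma-voom called 0 of the 30 and 0.4% of all. The median log2 fold change was −0.0054 over the 30 genes and −0.012 over all genes tested, with 15 of the 30 above 0. The 95% confidence interval of the fold change, taken gene by gene, lay within 1.5-fold in both directions for 20 of the 30, or 66.7%, and for 55.7% of all genes tested.

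**Figure D1:**
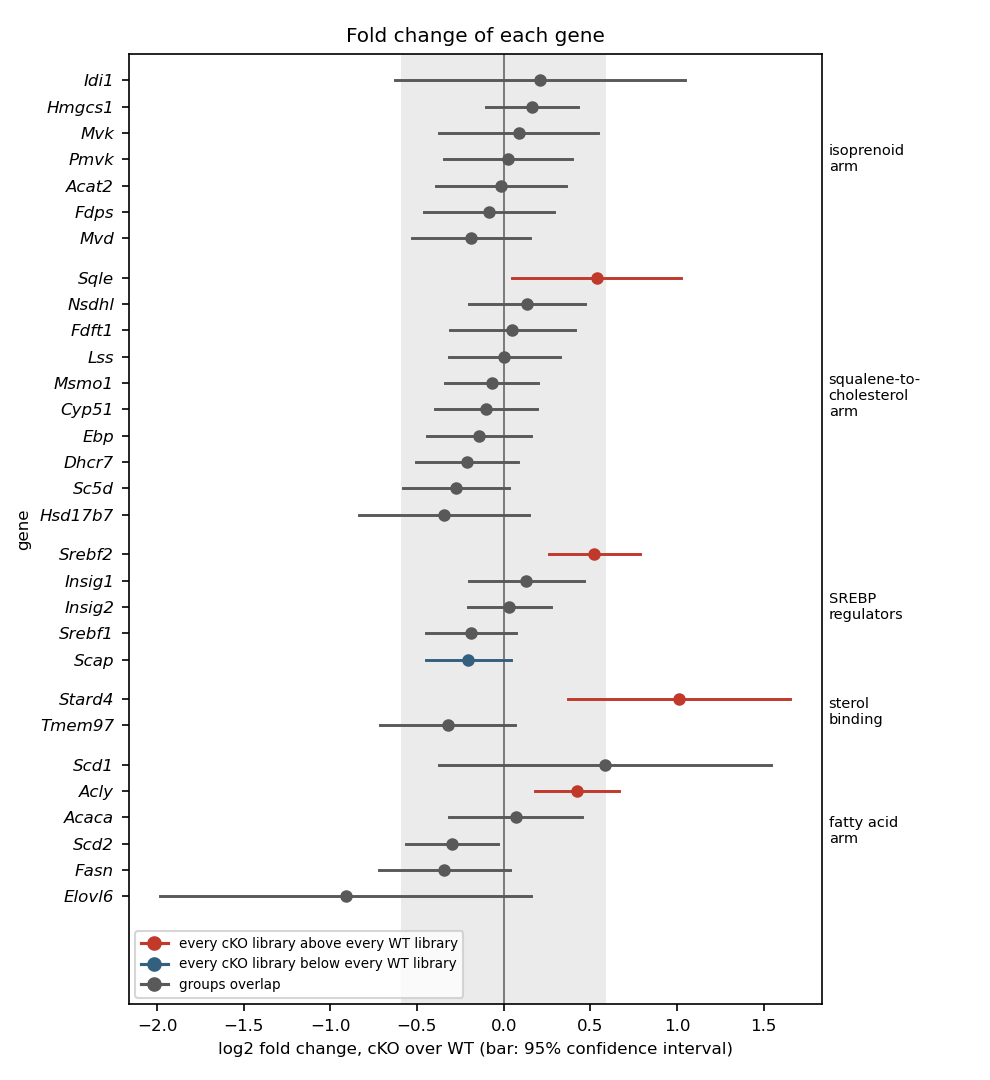
Log2 fold change, cKO (n = 4) over WT (n = 3), of each of the 30 genes (points) with its 95% confidence interval (bars), grouped by role; the grey band spans 1.5-fold in either direction. The 4 genes in red (Sqle, Srebf2, Stard4, Acly) were higher in each cKO library than in any WT library, Scap in blue was lower in every cKO library, and no gene passed the adjusted threshold.

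Of the 30, 5 genes had groups that did not overlap. Srebf2, Stard4, Acly and Sqle were higher in each cKO library than in any WT library, which 8.86% of all genes tested were, and Scap was lower in every cKO library, which 7.2% were. The 4 genes have different roles: a transcription factor, a sterol carrier, the enzyme that makes cytosolic acetyl-CoA and a rate-limiting enzyme of the sterol arm. In either direction 16.1% of all genes tested had groups apart, and 5 of the 30 is near that share.

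Srebf2, which encodes the SREBP that drives sterol synthesis, was at 67.7, 81.0, 68.1 and 83.7 CPM among the cKO libraries, against 56.4, 51.7 and 48.9 CPM among the WT libraries. Every cKO library lay above the highest WT library, and within cKO the 2 libraries with Xist lay above the other 2. The mean was 75.1 ± 8.44 CPM in cKO (SD, n = 4) and 52.3 ± 3.79 CPM in WT (SD, n = 3), a log2 fold change of 0.52 (SE 0.12, 95% confidence interval 0.26 to 0.78, adjusted p = 0.096). It did not pass in the main test. It passed with DESeq2 (log2 fold change 0.52, adjusted p = 0.0045), with Xist as a covariate (0.54, adjusted p = 0.0056), after correcting for GC content and length by offsets (0.63, adjusted p = 0.0048) and in both joint fits, of Xist with the offsets and of Xist with the mouse number, and over all alternatives the adjusted p ran from 0.0012 to 0.36. These settings also passed more of all genes tested: 4.49% with DESeq2, 10.5% with Xist and 4.95% with the offsets. The joint fits passed 13.1% with the offsets and 13% with the mouse number. The same shares apply to the passes of Stard4 and Acly below. Leaving out any library kept the log2 fold change of Srebf2 between 0.46 and 0.58, with no pass. In libraries with Xist, Srebf2 was at 81.0 and 83.7 CPM in cKO against 51.7 and 48.9 CPM in WT, and in those without it at 67.7 and 68.1 CPM in cKO against 56.4 CPM in the single WT library.

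Srebf1, whose product mainly drives fatty acid synthesis, had overlapping groups. It was at 69.8, 85.3, 64.5 and 81.4 CPM among the cKO libraries, against 86.7, 85.0 and 85.6 CPM among the WT libraries. cKO replicate 2 lay between WT libraries, and the other 3 cKO libraries lay below them. Its log2 fold change was −0.19 (SE 0.12, 95% confidence interval −0.45 to 0.07, adjusted p = 0.47). The balance of both genes within a library does not depend on how libraries are scaled. Per kb of transcript, the ratio of Srebf1 to Srebf2 was 1.22, 1.24, 1.12 and 1.15 among the cKO libraries, against 1.82, 1.94 and 2.07 among the WT libraries. The ratio was lower in every cKO library, with means of 1.18 ± 0.06 in cKO and 1.94 ± 0.13 in WT (SD, n = 4 and 3). Srebf2 had separated groups by itself, so the ratio is not independent of that result. Srebf1 makes the forms SREBP1a and SREBP1c from different starts, which counts per gene do not separate. Its exons share 109 bases with those of Rai1 on the opposite strand, which had 13623 counts over all libraries. The strand setting of the counting is not known.

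None of the other regulators passed. Scap, the sterol sensor that escorts both SREBPs, was at 140, 163, 134 and 166 CPM among the cKO libraries, against 169, 167 and 184 CPM among the WT libraries. Every cKO library lay below the lowest WT library, but cKO replicate 4 narrowly, and the difference of −0.20 on the log2 scale did not pass (SE 0.11, adjusted p = 0.39). Insig2, which retains the SCAP complex and is not itself strongly induced by SREBP2, averaged 43.1 ± 3.70 CPM in cKO and 42.1 ± 1.62 CPM in WT, with an interval from −0.21 to 0.27 on the log2 scale. Insig1, which does the same and is a classical SREBP target, averaged 13.8 ± 1.51 CPM in cKO and 12.6 ± 1.61 CPM in WT, with an interval from −0.20 to 0.46. The ratio of Insig2 to Insig1 per kb averaged 3.15 ± 0.38 in cKO and 3.39 ± 0.46 in WT, and the groups overlapped.

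**Figure D2:**
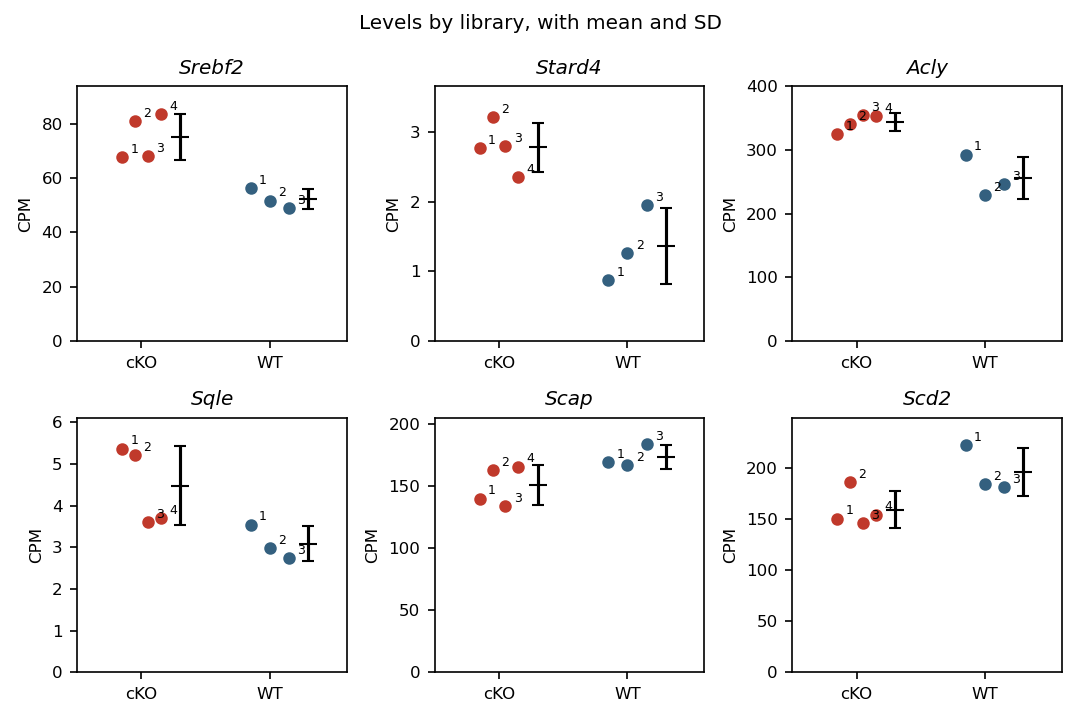
Level (TMM-scaled CPM, axis from 0) of 6 genes in each library, cKO on the left and WT on the right, with replicate numbers beside the points and the mean ± SD in black. Srebf2, Stard4, Acly and Sqle lay higher in all 4 cKO libraries than in all 3 WT libraries, Scap lay lower, and Scd2 overlapped through cKO replicate 2 at 187 CPM.

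The sterol-binding pair went opposite ways in their means. Stard4, a soluble protein that moves cholesterol between membranes and is an SREBP target, was at 2.77, 3.22, 2.80 and 2.36 CPM among the cKO libraries, against 0.88, 1.27 and 1.95 CPM among the WT libraries. The groups did not overlap, although the gene was scarce, with 77 to 95 counts per cKO library and 24 to 70 per WT library. The means were 2.79 ± 0.35 CPM for cKO and 1.37 ± 0.54 CPM for WT, a log2 fold change of 1.01 (SE 0.29, 95% confidence interval 0.37 to 1.65, adjusted p = 0.14). Leaving out WT replicate 1 gave 0.78 and leaving out WT replicate 3 gave 1.37, and Stard4 passed with DESeq2 (1.01, adjusted p = 0.035), with the Xist covariate (1.10, adjusted p = 0.031) and in both joint fits; over all alternatives the adjusted p ran from 0.025 to 0.41. Tmem97, an endoplasmic reticulum protein known as the sigma-2 receptor that binds the cholesterol transporter NPC1, was at 10.8, 13.4, 10.8 and 16.4 CPM in cKO, against 14.0, 15.6 and 18.6 CPM in WT, without passing (a log2 change of −0.32 with SE 0.18, adjusted p = 0.39). Its groups overlapped through cKO replicate 4.

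The isoprenoid arm showed no gene with separated groups. Its 7 genes had a median log2 fold change of 0.03, from −0.19 for Mvd to 0.21 for Idi1, and 4 were above 0. Hmgcs1, which makes HMG-CoA and is a standard readout of SREBP2, was at 40.7, 35.2, 38.2 and 32.8 CPM among the cKO libraries, against 31.0, 36.3 and 30.9 CPM among the WT libraries. WT replicate 2 lay above cKO replicates 2 and 4, and the log2 fold change was 0.16 (SE 0.12, 95% confidence interval −0.10 to 0.43). Of the other steps, Acat2, the thiolase that supplies acetoacetyl-CoA, averaged 8.64 ± 0.96 CPM in cKO and 8.73 ± 1.61 CPM in WT. The mevalonate kinase gene Mvk averaged 16.4 ± 3.48 and 15.4 ± 3.99 CPM in the same order, and Pmvk, the kinase after it, 12.2 ± 1.95 and 12.03 ± 1.79 CPM. Mvd, which makes isopentenyl diphosphate, averaged 10.6 ± 1.55 CPM in cKO and 12.1 ± 0.85 CPM in WT. Fdps, which joins the units into farnesyl diphosphate, averaged 15.4 ± 2.31 CPM in cKO and 16.3 ± 3.15 CPM in WT. Idi1, the isomerase between them, was scarce at 2.25, 0.88, 1.09 and 0.86 CPM for cKO and 1.10, 1.02 and 1.17 CPM for WT, and its high value in cKO replicate 1 set the sign of its fold change, which was −0.23 without that library. All 6 intervals other than that of Idi1 lay within 1.5-fold. The exons of Fdps share 1124 bases with those of Gm43738 on the same strand, a gene absent from the deposited counts. The counting rule is not known, so the level of Fdps is uncertain.

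In the arm from squalene to cholesterol, Sqle alone had groups that did not overlap, and its difference from the enzymes around it was not tested. Sqle, the squalene epoxidase and the first oxygen-requiring step of the pathway, was at 5.37, 5.21, 3.60 and 3.71 CPM among the cKO libraries, against 3.54, 2.98 and 2.73 CPM among the WT libraries. All cKO libraries lay above all WT libraries, but cKO replicates 3 and 4 lay close to WT replicate 1. The means were 4.47 ± 0.95 CPM for cKO and 3.09 ± 0.41 CPM for WT, a log2 fold change of 0.54 (SE 0.22, 95% confidence interval 0.05 to 1.02, adjusted p = 0.25), which passed in no alternative (0.42 to 0.65). Its neighbours differed less: Fdft1, the squalene synthase before it, averaged 11.4 ± 1.84 CPM for cKO and 11.1 ± 1.19 CPM for WT, and Lss, the lanosterol synthase after it, 9.27 ± 0.68 CPM in cKO and 9.23 ± 0.71 CPM in WT. The exons of Fdft1 share 774 bases with those of Ctsb on the opposite strand, a far more abundant gene here with 826021 counts over all libraries, and the strand setting of the counting is not known, so the level of Fdft1 is uncertain.

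After lanosterol, 6 of the 7 enzymes were below their WT mean, and the intervals of all 7 included 0. Of all 11991 genes tested, 6223 had a log2 fold change below 0. Cyp51 and Msmo1, which start the removal of the methyl groups of lanosterol, averaged 19.4 ± 1.24 and 27.6 ± 2.27 CPM in cKO, against 20.8 ± 2.92 and 28.9 ± 2.74 CPM in WT. Nsdhl, a dehydrogenase of the same steps and the exception, averaged 15.8 ± 2.23 CPM for cKO and 14.4 ± 1.25 CPM for WT, and Hsd17b7, the reductase that completes them, 3.82 ± 0.63 CPM in cKO and 4.85 ± 1.17 CPM in WT. Ebp, the sterol isomerase, was at 55.3, 68.3, 69.6 and 79.7 CPM in cKO and 65.7, 83.1 and 77.0 CPM in WT. Dhcr7, the reductase of 7-dehydrocholesterol, averaged 34.3 ± 5.00 CPM in cKO and 39.8 ± 3.58 CPM in WT. For Sc5d, the desaturase between them, the libraries were at 16.7, 16.6, 14.2 and 13.4 CPM in cKO and 16.5, 18.6 and 20.01 CPM in WT, with a log2 fold change of −0.27 (SE 0.14, 95% confidence interval −0.58 to 0.03, adjusted p = 0.35). Cyp51 shares 166 exon bases with Akap9 on the opposite strand. Intervals lay within 1.5-fold for 8 of the 10 genes of this arm, all but Sqle and Hsd17b7.

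**Figure D3:**
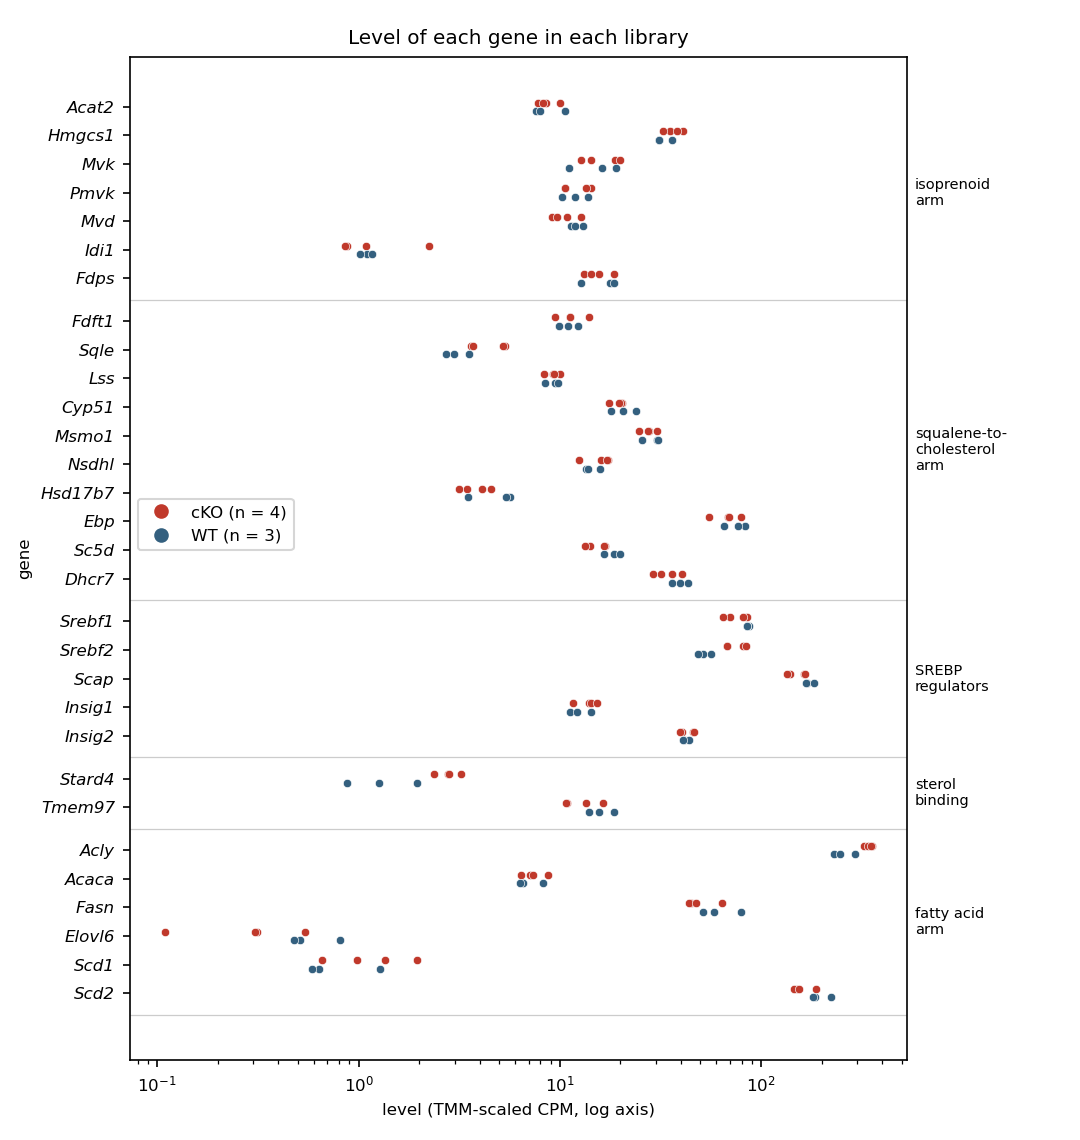
Level (TMM-scaled CPM, log axis) of the 30 genes in each cKO library (red, upper row of each gene) and WT library (blue, lower row), grouped by role. Levels ran from Elovl6, under 1 CPM in every library, to Acly, between 229 and 355 CPM, and the groups overlapped for all but Sqle, Srebf2, Scap, Stard4 and Acly.

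The 6 fatty acid genes had log2 fold changes from −0.91 for Elovl6 to 0.58 for Scd1, with a median of −0.11. Acly, the citrate lyase that makes the acetyl-CoA used for both cholesterol and fatty acids, was at 325, 340, 355 and 353 CPM among the cKO libraries, against 293, 229 and 246 CPM among the WT libraries. The 4 cKO libraries lay close together and above the highest WT library, with means of 343 ± 14.0 CPM for cKO and 256 ± 32.8 CPM for WT and a log2 fold change of 0.42 (SE 0.11, 95% confidence interval 0.18 to 0.67, adjusted p = 0.12). Acly passed with DESeq2 (0.42, adjusted p = 0.015), with the Xist covariate (0.40, adjusted p = 0.021), with both offsets, for GC and length (0.46, adjusted p = 0.020) and in both joint fits. Over all alternatives its adjusted p ran from 0.0058 to 0.41, and without any library its log2 fold change ran from 0.34 to 0.53.

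None of the enzymes after Acly was higher in all cKO libraries. Acaca, the acetyl-CoA carboxylase that commits carbon to fatty acids, averaged 7.40 ± 0.99 CPM in cKO and 7.06 ± 1.01 CPM in WT. Fasn, the fatty acid synthase, was at 44.7, 63.8, 43.6 and 47.6 CPM in cKO, against 79.9, 58.3 and 51.8 CPM in WT, without passing (a log2 change of −0.34 with SE 0.17, adjusted p = 0.35). Its groups overlapped through cKO replicate 2, and its fold change was −0.14 without WT replicate 1. Elovl6, the elongase of palmitate, had 3 to 16 counts per cKO library and 14 to 29 per WT library, and its interval ran from −1.98 to 0.16 on the log2 scale. Too few reads were obtained from Elovl6 to tell a large fall from no change.

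Of the stearoyl-CoA desaturase genes, Scd2 was far above Scd1. Scd2, the stearoyl-CoA desaturase that predominates in the brain, was at 151, 187, 146 and 155 CPM among the cKO libraries, against 223, 184 and 181 CPM among the WT libraries. All but cKO replicate 2 lay below the WT libraries, with means of 160 ± 18.3 CPM for cKO and 196 ± 23.1 CPM for WT and a log2 fold change of −0.30 (SE 0.12, 95% confidence interval −0.57 to −0.03, adjusted p = 0.25). The difference passed in 1 alternative, with the mouse number and Xist as terms (−0.31, adjusted p = 0.040), where 13% of all genes tested passed. Over all alternatives the adjusted p ran from 0.040 to 0.48. Scd1, the desaturase of liver and fat, had 18 to 58 counts per cKO library and 20 to 35 per WT library. Per kb, Scd2 exceeded Scd1 by 84.2 to 198 times in cKO libraries and by 154 to 274 times in WT libraries, and the groups overlapped. Oligodendrocytes also express Scd2. Their markers summed to 225, 313, 254 and 332 CPM among the cKO libraries and 239, 226 and 257 CPM among the WT libraries, with Cnp the largest share. The myelin gene Mbp was at 63.4, 103, 61.7 and 71.2 CPM in cKO and 77.8, 61.0 and 72.2 CPM in WT, and Mobp at 1.70, 2.74, 1.31 and 1.26 CPM in cKO and 1.90, 1.11 and 1.06 CPM in WT. Scd2, Mbp and Mobp were each highest in cKO replicate 2 within cKO and in WT replicate 1 within WT, and the part of such RNA in the Scd2 level was not tested.

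Per kb of its longest annotated transcript, the pathway was uneven in these cells. Acly led with 77.6 CPM per kb in cKO and 57.9 CPM per kb in WT, ahead of Ebp with 39.1 and 43.2, Scap with 35.6 and 41.0, and Scd2 with 29.2 and 35.98 CPM per kb in the same order. Hmgcs1, at 10.6 CPM per kb in cKO and 9.45 CPM per kb in WT, stood far above Sqle, at 1.00 and 0.69 CPM per kb. At the low end were Idi1 with 0.42 CPM per kb in cKO and 0.36 CPM per kb in WT, Stard4 with 0.55 and 0.27, Scd1 with 0.26 and 0.17, and Elovl6 with 0.05 and 0.10 CPM per kb. The longest transcript can exceed the one in use, as for Lss, where it retains an intron, and such a level is then too low.

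Within cKO, libraries with and without Xist differed in some of the 30 genes, as they did in many of all genes tested. In 12 of the 30 genes both cKO libraries with Xist lay above both without it, and in 3 both lay below, which is 40% and 10% of the 30, beside 30.3% and 27.1% of all genes tested. The 12 were Mvk, Pmvk, Mvd, Fdps, Nsdhl, Dhcr7, Srebf1, Srebf2, Scap, Tmem97, Fasn and Scd2, and the 3 were Hmgcs1, Idi1 and Insig2. The same cKO libraries had GC content correlations above 0, and the part of either in these levels was not tested beyond the fits above. The mean log2 CPM of the 10 genes of the sterol arm was 3.93, 3.95, 3.78 and 3.93 among the cKO libraries, and 3.81, 3.99 and 4.02 among the WT libraries. That of the 6 fatty acid genes was 3.88, 4.16, 3.49 and 3.81 in cKO, and 4.17, 3.76 and 3.84 in WT. In both sets the lowest library was cKO replicate 3, and the cKO and WT libraries overlapped.

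**Figure D4:**
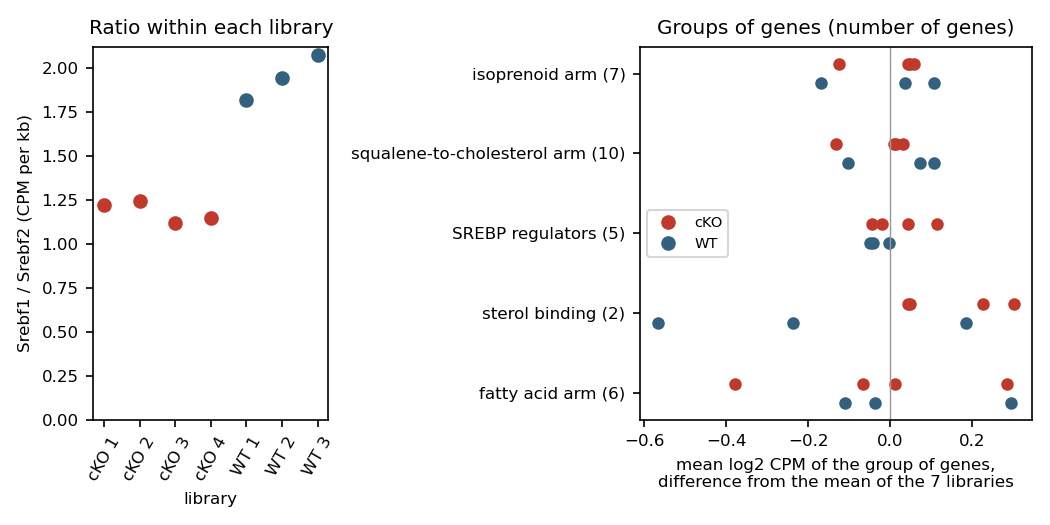
Left, the ratio of Srebf1 to Srebf2 (CPM per kb, axis from 0) in each library. Right, the mean log2 CPM of each group of genes in each library, as its difference from the mean of the 7 libraries. The ratio was 1.12 to 1.24 in the cKO libraries and 1.82 to 2.07 in the WT libraries, while the gene groups overlapped between cKO and WT.

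A further 53 genes of the pathway served for comparison, among them ligases that control it, sterol uptake, and elongation and desaturation of fatty acids; 52 were in the table and 44 were tested. Of these 1 rose, 0 fell and 43 did not pass, and 21 of the 44 were above 0 with a median log2 fold change of −0.05. Among all genes tested 0.317% rose, 0.0417% fell and 48.1% were above 0. Rnf145, an endoplasmic reticulum ubiquitin ligase known to act on SCAP, was chosen for mention after its values were seen. It was at 126, 113, 126 and 129 CPM among the cKO libraries, against 169, 165 and 184 CPM among the WT libraries, with every cKO library lower (log2 fold change −0.48, SE 0.10, adjusted p = 0.070). Every cKO library lay below every WT library for 7.2% of all genes tested. Acat1, the mitochondrial thiolase, was chosen in the same way and averaged 72.3 ± 6.88 CPM in cKO and 54.8 ± 3.53 CPM in WT, without passing (a log2 change of 0.40 with SE 0.11, adjusted p = 0.14).

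A list of 8 genes covered the LXRs themselves (Nr1h2 and Nr1h3), cholesterol export and other genes of sterol and lipid handling. Of the 8, 1 fell, 0 rose and 7 did not pass, where 0.0417% of all genes tested fell. All 8 had a log2 fold change below 0, as did 6223 of all 11991 genes tested, and the median was −0.29 beside −0.012 for all. The list as a whole was not tested. The gene that fell was Abcg1, which exports cholesterol to lipoproteins, with 141, 154, 137 and 145 CPM among the cKO libraries, against 282, 264 and 285 CPM among the WT libraries. All cKO libraries lay far below all WT libraries, with means of 144 ± 7.47 CPM for cKO and 277 ± 11.5 CPM for WT and a log2 fold change of −0.94 (SE 0.10, adjusted p = 0.0026).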

How the data were processed

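RNA sequencing libraries of sorted cortical microglia from 4 cKO and 3 WT mice were analysed from 1 table. The authors deposited whole-number counts per gene symbol that were not normalized. DRAGEN and GRCm39 are named, per the submitters' processing notes; for annotation, counting rule and strand, the setting was not given in the sources used here. Genes were kept with filterByExpr (least count 10, least total count 15), scaled by TMM, and compared with edgeR's quasi-likelihood test (version 4.0.16, limma 3.58.1, R 4.3.3; robust option, no covariate), with Benjamini-Hochberg adjustment over all 11991 genes tested and a threshold of 0.05. SE is the log2 fold change divided by the square root of F, and each 95% interval uses the t quantile of the fit. CPM are TMM-scaled, and a prior count of 2 entered their log2 values. CPM per kb used the longest GENCODE M21 transcript. Libraries of a group differed beyond sampling noise, with chi-square values of 18.8 to 97.1 per degree of freedom. The procedure was tested on simulated data.

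The 30 genes, the comparison lists and the alternatives were chosen with earlier results of these data known. All 30 genes were to be named, with Srgap2, Abcg1 and, of each comparison list, the genes past the threshold or, with none past it, the 3 with the smallest p; a gene that this rule takes, though it remains in the counts, and a listed marker are not reported here. Alternatives were RLE and upper-quartile scaling, DESeq2 (1.42.0), limma-voom, no filter, a minimum of 1 CPM in 3 libraries, dropping each library in turn, a replicate block, the mouse number (below 1100 or not), Xist as a covariate, and offsets for GC content and length (loess, span 0.3; 99.3% of genes tested had values). The last 2 joint fits, of Xist with those offsets and of Xist with the mouse number, were added after seeing the data.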

Additional observations from a re-analysis of the deposited data

Results flagged for a closer look

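Idi1, the isopentenyl diphosphate isomerase gene, was at 2.25 CPM in cKO replicate 1 and at 0.86 to 1.09 CPM in the other 3 cKO libraries, a gap of 0.832 of the group's range, just past Dixon's 95% limit for 4 samples. The library held 65 counts of the gene. Of the 30 genes looked at in this way, it was the only one so far from its group, and chance alone gives about 1 in 20.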

How the results depend on the processing

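Without 1 library, 4 to 142 genes passed in place of 43, with 2 to 111 higher and 2 to 31 lower in cKO; the median of the 30 genes ran from −0.10 to 0.016 and that of the isoprenoid arm from −0.10 to 0.13. The number that passed was 42 to 48 with RLE or upper-quartile scaling, limma-voom or the 1 CPM filter, 89 without a filter (72 higher, 17 lower), 170 with the mouse number term (137 and 33), 288 with the replicate block (173 and 115), 538 with DESeq2 (374 and 164), 594 with GC content and length offsets (476 and 118), 1265 with the Xist covariate (875 and 390), 1560 with mouse number and Xist (1030 and 530) and 1575 with Xist and the offsets (1115 and 460). Lower genes numbered 10 with upper-quartile scaling and 8 with the 1 CPM filter, against 5. Of the 30 genes, 3 passed with DESeq2, 3 with Xist, 2 with the offsets, 3 with Xist and the offsets and 4 with mouse number and Xist, and 0 in the other settings. The shares of all genes tested that passed were 4.49% with DESeq2, 10.5% with Xist and 4.95% with the offsets. They were 13.1% with Xist and the offsets and 13% with mouse number and Xist. Of the other pathway genes 3 passed with DESeq2, 2 with the block, 2 with the mouse number, 5 with Xist, 3 with the offsets, 7 with Xist and the offsets, 5 with mouse number and Xist and 0 to 2 without single libraries, against 1. Of the LXR and sterol export genes 2 passed with DESeq2, 3 with Xist, the offsets or either joint fit and 1 to 2 without single libraries, against 1. The cause was not tested.

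Same-numbered replicates had correlated deviations for number 1 only (0.39, 0.07 and −0.17). The labels do not say that same-numbered replicates belong together, so what the replicate block pairs is not known. Several fold changes near 0 turned sign. Acat2 was 0.017 with the block, 0.034 with Xist, 0.0090 with Xist and the offsets and 0.023 with mouse number and Xist. With the block, Mvk was −0.0027, Pmvk −0.031, Fdft1 −0.056 and Lss −0.0022; Lss was −0.018 with upper-quartile scaling and −0.012 with the 1 CPM filter. Idi1 was −0.0045 with Xist and −0.021 with mouse number and Xist. Fdps was 0.033 with Xist, 0.028 with Xist and the offsets and 0.041 with mouse number and Xist, and Insig2 was −0.00087 with Xist and −0.013 with Xist and the offsets. Without single libraries the ranges were −0.10 to 0.15 for Acat2, −0.10 to 0.26 for Mvk, −0.073 to 0.13 for Pmvk, −0.23 to 0.36 for Idi1, −0.23 to 0.019 for Fdps, −0.060 to 0.14 for Fdft1, −0.055 to 0.052 for Lss, −0.19 to 0.0093 for Cyp51, −0.017 to 0.072 for Insig2 and −0.037 to 0.19 for Acaca. Without length scaling the mean ratio of Srebf1 to Srebf2 was 1.00 in cKO and 1.64 in WT. DESeq2 gave no adjusted p for Elovl6, Idi1 and Scd1, and the 1 CPM filter removed Elovl6. Few counts of Elovl6, Scd1, Idi1 and Stard4 limit their precision.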
